A study of Mus musculus with 2 samples.

Results

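The adult globin genes of the mouse were followed through the cell classes of 2 bone marrow libraries. They were chosen by symbol: Hba-a1 and Hba-a2 encode alpha-globin, Hbb-bs and Hbb-bt encode beta-globin, and Ahsp, the alpha-haemoglobin stabilizing protein, was listed with them. The first 4 of these 5 symbols were matched among the 32286 features of the count matrices, and Ahsp was not analysed here. Droplet-based single-cell RNA-seq of the 3' ends of transcripts was carried out on primary haematopoietic cells of bone marrow from 2 genotypes, with 1 library each. The control genotype was Mx1Cre+/-;Rosa26+/+ and the MYC genotype was Mx1Cre+/-;Rosa26LSL-MYC/LSL-MYC, so both carried the Mx1-Cre transgene. Mx1-Cre expresses the Cre recombinase from an interferon-inducible promoter that is active in haematopoietic and in other cells. In LSL-MYC, a MYC transgene at Rosa26 is kept silent by a stop cassette, which recombination by Cre takes out. The series was set up to examine how marrow cells differ once MYC is overexpressed in stem cells. The age of the animals, the number pooled into a library and the schedule of Cre induction are not given in the sources used here.

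Haemoglobin is a tetramer of alpha and beta chains that each hold a heme. Red-cell precursors accumulate globin mRNA as they mature, from progenitors through erythroblasts to reticulocytes, until it makes up much of their RNA. Free alpha chains are unstable and harmful to the cell, so the alpha to beta balance is of interest in disorders of the red cell, and Ahsp is the chaperone that binds free alpha chains.

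The genes lie as 2 tandem pairs (GENCODE vM21 models, GRCm38). Hba-a1 (ENSMUSG00000069919) is on the plus strand at chr11:32283511-32284465 and Hba-a2 (ENSMUSG00000069917) follows on the same strand at chr11:32296489-32297298, with 12023 bases between them. On the minus strand, Hbb-bs (ENSMUSG00000052305) is at chr7:103826534-103828096 and Hbb-bt (ENSMUSG00000073940) at chr7:103812524-103813996, with 12537 bases between them. All 4 are annotated as protein-coding. The 250 bases before the RefSeq start site are shown for one alpha gene and for both beta genes, because the alpha pair is almost identical there and the beta pair is not. Sequences are from RefSeq (GRCm38.p6) and run 5' to 3' on the strand of the gene, with motif matches in capitals. The Hba-a2 window is chr11:32296242-32296491, the Hbb-bs window chr7:103827929-103828178 and the Hbb-bt window chr7:103813924-103814173.
Hba-a2: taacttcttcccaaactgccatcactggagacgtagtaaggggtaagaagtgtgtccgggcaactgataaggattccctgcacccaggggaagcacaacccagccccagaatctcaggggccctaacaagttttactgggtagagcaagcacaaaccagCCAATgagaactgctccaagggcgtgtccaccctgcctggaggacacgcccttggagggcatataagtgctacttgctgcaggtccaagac
Hbb-bs: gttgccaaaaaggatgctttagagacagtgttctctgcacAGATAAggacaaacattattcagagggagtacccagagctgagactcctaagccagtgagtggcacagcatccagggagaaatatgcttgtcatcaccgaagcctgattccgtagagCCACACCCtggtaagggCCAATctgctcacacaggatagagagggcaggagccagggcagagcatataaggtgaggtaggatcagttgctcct
Hbb-bt: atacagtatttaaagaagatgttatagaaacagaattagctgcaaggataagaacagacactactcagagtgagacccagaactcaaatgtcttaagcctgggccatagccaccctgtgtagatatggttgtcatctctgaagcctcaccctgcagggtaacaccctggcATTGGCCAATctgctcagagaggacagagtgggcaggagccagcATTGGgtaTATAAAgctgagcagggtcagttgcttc

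The promoters of Hba-a1 and Hba-a2 shared 247 of these 250 bases as 1 identical run, offset by 3 bases relative to the start sites. Hbb-bs and Hbb-bt matched at 178 of 243 aligned bases, or 73.3%. Motifs of 4 kinds were searched on both strands. The letters of the CCAAT box are its name. For the TATA box, an element that places the start site in many promoters, the letters were TATAAA. For the motif of GATA factors, which include the erythroid regulator Gata1, the letters were AGATAA. For KLF1, an erythroid activator of beta-globin, they were CCACACCC. CCAAT was found on the strand of the gene 91 bases before the start of Hba-a2, 88 before Hba-a1, 76 before Hbb-bs and 75 before Hbb-bt. Hbb-bt held 2 further CCAAT matches on the opposite strand, at 80 and 36 bases, the first of which adjoins the match on its own strand. TATAAA was found in Hbb-bt alone of the 4, at 28 bases. AGATAA, at 210 bases, and CCACACCC, at 93 bases, were found in Hbb-bs alone of the 4. Of 32851 RefSeq promoter windows of the same length, 33.8% held CCAAT, 12.4% TATAAA, 9.99% AGATAA and 3.20% CCACACCC. These matches describe the letters in the windows. GENCODE holds models of all 4 genes that begin upstream of the RefSeq start, for Hba-a2 by 3 bases, so parts of the windows lie within the first exon of those models.

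Likeness also limits how the reads can be assigned. The GENCODE vM21 transcripts compared, 1 for each gene, matched at 537 of 538 aligned bases for Hba-a1 and Hba-a2. Of the 151 windows of 50 bases in the last 200 bases of Hba-a2, 85 also occur in Hba-a1. For Hba-a1, 101 of 151 such windows occur in Hba-a2. Counters that keep only reads of a single gene leave out reads from such stretches, so both the split between the alpha genes and the alpha share of all globin UMIs are uncertain. How many alpha reads were left out was not tested. The alpha share is therefore set beside the other library and not read as the true balance of the chains. Hbb-bs and Hbb-bt matched at 92.7% of aligned bases, and 0 of 151 such windows in the last 200 bases of either are shared. A unique molecular identifier (UMI) marks 1 captured transcript end, so levels were compared between genes with no scaling by length.

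The libraries held 17073 control and 14496 MYC barcodes with 131884603 and 110012176 UMIs. After filters on depth, mitochondrial UMIs and called doublets, 14760 and 12645 cells were kept, with medians of 5321.5 and 6014 UMIs, and 77 barcodes of kept cells occurred in both libraries. The feature of the MYC transgene had no UMI (0) in control cells and 295 UMIs in MYC cells, 9 of them in erythroid cells, so the feature was found only in the library labelled MYC. Cells were clustered without the globin genes, and clusters were named from marker genes that do not include them. The names mean "erythroid-like" and so on. All 24 erythroid markers were detected in the erythroid cells of both libraries. These made up 1448 control cells (9.81%) and 592 MYC cells (4.68%), from 3 clusters. Most control cells, 803, were in the cluster led by Hemgn and Apol8, whereas the largest number of MYC cells, 282, was in the cluster led by Tmcc2 and Slfn14. An unnamed cluster of low UMI counts held 2450 control (16.6%) and 2609 MYC cells (20.6%). Its best-scoring marker list was the erythroid one, and Slc4a1 and Car2 were among its leading genes. It was left unnamed for its low UMI counts, so the erythroid counts given here do not include it. With 1 library a genotype there is no replicate and no test between genotypes. All intervals are 95% intervals, cover counting error only, and compare these libraries, not the genotypes.

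Globin transcripts were abundant in the erythroid cells of both libraries, and beta UMIs outnumbered alpha UMIs in each. Summed over the erythroid cells, the 4 genes had 89613 counts per 1000000 UMIs (CPM) for the control and 97064 for MYC. In the control, Hbb-bs was highest at 42617 CPM, then Hba-a1 at 19519, Hbb-bt at 15745 and Hba-a2 at 11732. The MYC library had the same order, with Hbb-bs at 51216 CPM, Hba-a1 at 21008, Hbb-bt at 15378 and Hba-a2 at 9462. The log2 ratio of MYC over control was 0.27 for Hbb-bs, 0.11 for Hba-a1, -0.03 for Hbb-bt and -0.31 for Hba-a2. None of the 4 members was at least 2-fold apart with an interval that excluded equality, whereas of 9984 genes with enough UMIs 4.87% were higher and 3.79% lower in MYC by that rule.

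The level of the sum depended on how cells were weighted, so it carries no firm direction. Its log2 ratio was 0.12 (0.11 to 0.12) with UMIs pooled over cells, and -0.28 as a mean of each cell's own CPM. It was -0.13 with cells under 5% mitochondrial UMIs and -0.015 with a finer clustering. The erythroid cells of the MYC library were more uneven: the median was 172 globin UMIs per cell (quartiles 21 to 2214) against 1136.5 (189.75 to 2193) in the control. A sub-cluster of low UMI counts led by genes of other classes, at medians of 2037 and 1491.5 UMIs a cell, held 222 of the 592 MYC cells and 178 of the 1448 control cells. A second sub-cluster, led by the neutrophil granule genes Camp, Ngp and Ltf, held 41 and 102 cells, and its 18 neutrophil markers summed to 43534 CPM in MYC and 27236 CPM in the control. Over the whole erythroid class the same markers summed to 6910 CPM in MYC and 3911 CPM in the control, with none of the 18 at 0. The part of these cells in the difference of the class was not tested, and the pattern along maturation is given without both sub-clusters.

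Erythroid cells were ordered by a score of late minus early stage markers, none of them a globin, and split into 5 equal ranges of the score, from range 1 (early) to range 5 (late). This was done because 4 of the 9 sub-clusters were almost wholly of 1 library, among them 1 of 182 cells led by Trib3, Gdf15 and Ddit3 with no control cell. The ranges held 66, 340, 463, 111 and 188 control cells and 57, 66, 129, 53 and 24 MYC cells. Range 5 of MYC is below the minimum of 30 cells set for a ratio.

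**Figure D1:**
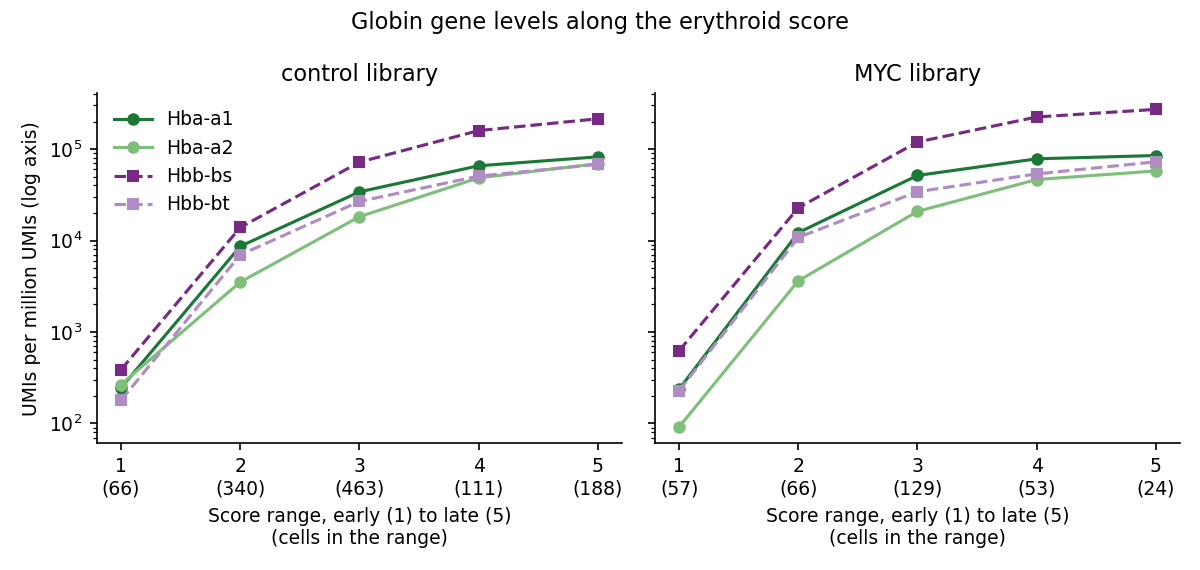
Level of each globin gene (CPM, log axis) in 5 ranges of the erythroid stage score, for the control and the MYC library, with mixed sub-clusters left out. The summed globins go from 0.108% of UMIs in range 1 to 43.4% in range 5 of the control, and from 0.118% to 48.7% in MYC, and Hbb-bs is the highest gene in each range.

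The summed globins made up 0.108%, 3.30%, 15.1%, 32.4% and 43.4% of UMIs from range 1 to range 5 of the control. In the MYC library they made up 0.118%, 4.94%, 22.6%, 40.2% and 48.7%. The share was therefore higher at each later range in both libraries, and the largest step, as a ratio, was from range 1 to range 2. Within a range, the log2 ratio of MYC over control was 0.13 (0.06 to 0.20), 0.58 (0.57 to 0.59), 0.58 (0.58 to 0.59) and 0.31 (0.30 to 0.32) in ranges 1 to 4. Across 9 ways of choosing the cells, the pooled ratio was above 0 in 9 of 9 in each of ranges 2 to 4 but in 1 of 9 in range 1. As a mean over cells it was above 0 in 0, 1, 2 and 2 of the 9 in ranges 1 to 4. With the mixed sub-clusters left out, as shown here, the mean over cells was above 0 in ranges 2 to 4, at 0.29, 0.53 and 0.28, and below 0 in range 1, at -1.43. With them kept it was -0.67, -0.18, -0.08 and -0.015 in ranges 1 to 4. The other settings above 0 were at least 1000 UMIs and 500 genes in range 3 (0.17) and called doublets kept in range 4 (0.08). The direction per cell in ranges 2 to 4 thus depends on which cells are counted, the mixed sub-clusters among them.

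Range 1 held few globin UMIs outside a handful of cells. Its median was 20.5 globin UMIs per cell in the control and 8 in MYC, at median depths of 46996 and 39698 UMIs. In the control, 5 of 66 cells had more than 50 globin UMIs and held 59.5% of the range's total. In MYC, 2 of 57 cells held 83.4%. From range 2 on, most cells were rich in globin. In range 2, 319 of 340 control and 59 of 66 MYC cells exceeded 50 UMIs, with medians of 620.5 and 920 per cell. In range 3, 458 of 463 control and 129 of 129 MYC cells exceeded 50 UMIs, with medians of 1794 and 2840 per cell. In range 4, 99 of 111 control and 52 of 53 MYC cells did, and in range 5, 187 of 188 and 24 of 24.

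Each member followed this course. Hbb-bs, the more abundant beta chain, had 387, 13880, 71899, 159130 and 214244 CPM from range 1 to 5 of the control. In MYC it had 623, 22766, 119313, 224125 and 271484 CPM, and it was the member with the highest log2 ratio in each of ranges 1 to 4, at 0.69, 0.71, 0.73 and 0.49. Hbb-bs was thus above the control in every range of the cells shown. In range 1 this rests on the 2 globin-rich MYC cells and on the mixed sub-clusters being left out: with all erythroid cells its log2 ratio there was -0.18 (-0.27 to -0.09). Hbb-bt, the second beta chain, had 179, 6956, 26728, 50566 and 67994 CPM in the control and 228, 10807, 34133, 53477 and 72550 CPM in MYC. Its log2 ratios were 0.35, 0.64, 0.35 and 0.08 in ranges 1 to 4. These ratios were smaller than those of Hbb-bs at each range. With all erythroid cells the Hbb-bt ratios were -0.56, 0.51, 0.13 and -0.03, so the sign in ranges 1 and 4 rests on leaving out the mixed sub-clusters.

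Of the alpha genes, Hba-a1 had 245, 8638, 34025, 65592 and 82234 CPM in the control. In MYC it had 237, 12196, 51409, 78195 and 84957 CPM, and its log2 ratios were -0.05, 0.50, 0.60 and 0.25. Hba-a2 had 266, 3511, 18208, 48377 and 69323 CPM in the control and 91.5, 3621, 20816, 46388 and 57640 CPM in MYC. Its log2 ratios of -1.54, 0.04, 0.19 and -0.06 were the lowest of the 4 members in each of ranges 1 to 4. With all erythroid cells they were -1.44, 0.02, -0.04 and -0.24, so the sign in range 3 rests on leaving out the mixed sub-clusters. Range 1 held 12.5 Hba-a2 UMIs per cell in the control and 3.56 in MYC, where neutrophil-lineage cells held 4.57 and 1.19. The part of such background in the range 1 values was not tested. Hba-a2 exceeded Hba-a1 in range 1 of the control only, and with all erythroid cells it was below Hba-a1 there too, at 334 against 387 CPM.

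The balance of the chains differed between the libraries more steadily than the level did. Over all erythroid cells of the MYC library alpha made up a smaller share of globin UMIs, Hba-a2 a smaller share of alpha, and Hbb-bt a smaller share of beta. Not each cluster followed this: in the cluster led by Mt2 and Car1 the Hba-a2 share was 33.0% in the control and 35.0% in MYC, where 14 of 99 MYC cells held 90.4% of the globin UMIs. In the sub-cluster led by Sec14l2 the Hbb-bt share was 35.1% in the control and 36.5% in MYC. On 7 and 5 MYC cells only, the alpha share was 34.3% in the control and 35.0% in MYC in the sub-cluster led by Mxd3 and E2f7, and 34.9% and 40.5% in that with Isg15 among its leading genes. In the latter the Hba-a2 share was 36.6% in the control and 45.4% in MYC. Over all erythroid cells, alpha made up 34.9% (34.8 to 34.9) in the control and 31.4% (31.3 to 31.5) in MYC, which is 1.87 and 2.19 beta UMIs for each alpha UMI. The share was lower in MYC by a few percentage points, far outside counting error, although the spread between animals is not known.

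**Figure D2:**
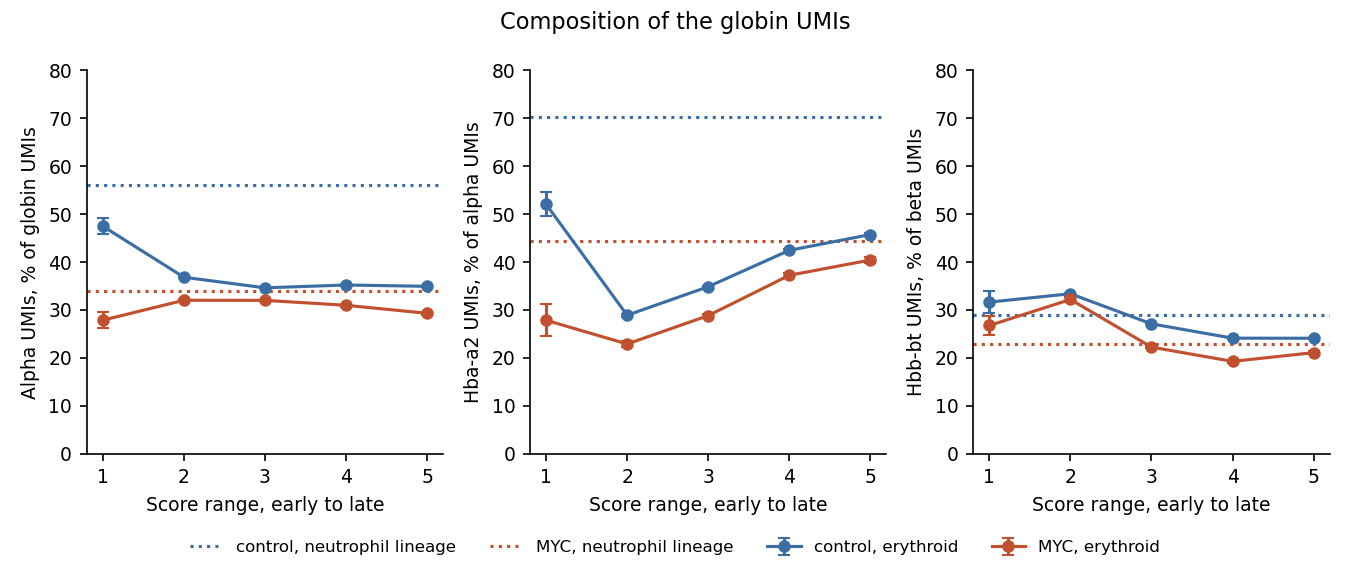
Share of alpha in all globin UMIs, of Hba-a2 in alpha UMIs and of Hbb-bt in beta UMIs (percent) by range of the erythroid stage score. Dotted lines give the share in neutrophil-lineage cells of the same library. The MYC library lies below the control in all 5 ranges of each share.

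From range 1 to 5, the alpha share was 47.5%, 36.8%, 34.6%, 35.2% and 34.9% in the control and 27.9%, 32.0%, 32.0%, 31.0% and 29.3% in MYC. Past range 1 it moved little with maturation within either library, and the MYC value was the lower one in each range. It was lower in MYC under 9 of 9 ways of choosing the cells in all 5 ranges, though the values of range 1 rest on few cells. Single cells with at least 100 globin UMIs showed the same order. In range 3 the median cell had an alpha share of 35.0% (quartiles 32.3 to 38.1) in 452 control cells and 32.2% (29.7 to 36.0) in 129 MYC cells. In range 5 the median was 34.9% (33.3 to 37.1) in 185 control cells and 30.04% (28.5 to 31.3) in 23 MYC cells. The quartiles overlapped in range 3 and did not in range 5.

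From range 2 on, maturation went with a shift between the alpha genes in both libraries. Hba-a2 made up 28.9%, 34.9%, 42.4% and 45.7% of alpha UMIs in ranges 2 to 5 of the control and 22.9%, 28.8%, 37.2% and 40.4% in MYC. From range 2 to 5 its share was higher at each later range of both. Range 1 did not follow this order, with 52.1% in the control and 27.8% in MYC, both above range 2. The share was lower in MYC in 9 of 9 settings in each of the 5 ranges. In single cells of range 5 the median Hba-a2 share was 46.1% (43.6 to 48.1) in the control and 39.4% (36.0 to 42.9) in MYC. The quartiles did not overlap between the libraries there.

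The beta genes shifted the other way. Hbb-bt made up 33.4%, 27.1%, 24.1% and 24.1% of beta UMIs in ranges 2 to 5 of the control and 32.2%, 22.2%, 19.3% and 21.1% in MYC. In range 1 it made up 31.6% and 26.8%. Its share was thus lower in MYC at each range, and from range 2 to range 4 it was lower at each later range of both libraries. The order of ranges 1 and 2 is not firm: in the early-progenitor-like sub-cluster of the control Hbb-bt made up 48.4% of beta UMIs, above the 35.1% of the sub-cluster led by Sec14l2, and in MYC 27.3% against 36.5%. The Hbb-bt share was lower in MYC in 9 of 9 settings in each range other than range 2, where it was in 8. The median cell of range 3 had an Hbb-bt share of 27.7% (24.4 to 31.1) in the control and 23.8% (19.0 to 28.9) in MYC.

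Globin UMIs were also found in nearly every cell that was not erythroid. In droplet libraries, free RNA from broken cells is captured along with each cell's own, and red-cell RNA is a common source in marrow. In the neutrophil lineage (6817 control and 5963 MYC cells), a class that does not make haemoglobin, 99.9% and 99.5% of cells held a globin UMI, and 79.0% and 62.7% still did after each cell was thinned to 1000 UMIs. By comparison, 96.0% of control and 89.7% of MYC erythroid cells did after the same thinning. The thinned shares leave out 143 control and 97 MYC cells of the neutrophil lineage and 56 and 48 erythroid cells that were shallower. Median depths were 5315 and 6877 UMIs in the neutrophil lineage and 10769.5 and 7962 in erythroid cells.

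**Figure D3:**
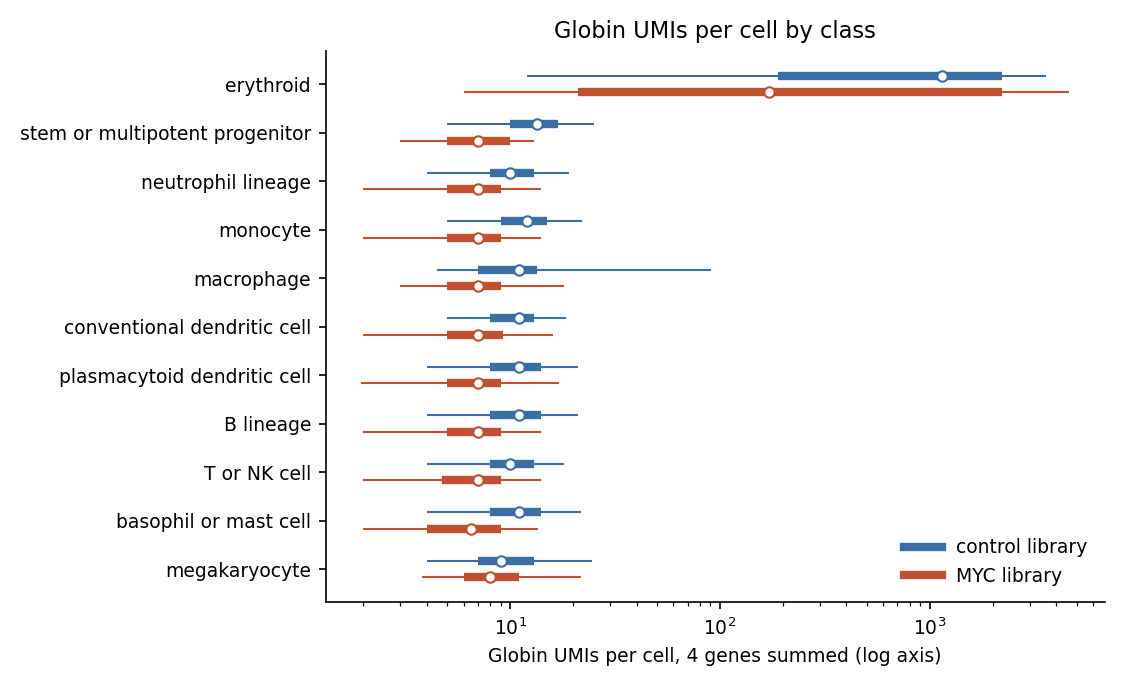
Globin UMIs per cell (4 genes summed, log axis) by class and library. Points are medians, thick bars quartiles and thin bars the 5th to 95th percentile. The medians of the classes other than erythroid lie between 9 and 13.5 in the control and between 6.5 and 8 in MYC. The unnamed cells, at medians of 16 and 9, are not drawn.

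The number of globin UMIs per cell was nearly the same across classes of a library. In the 7 non-erythroid classes with at least 100 cells in both libraries, the median was 10 to 13.5 per cell in the control and 6.5 to 7 in MYC. Across the same classes the median depth differed 4.02-fold in the control and 3.27-fold in MYC. Stem or multipotent progenitors, for instance, had medians of 13.5 and 7 globin UMIs at depths of 20938.5 and 14790, and T or NK cells had 10 and 7 at depths of 6269 and 4520. Per cell, the control thus had the higher count in each of these classes.

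**Figure D4:**
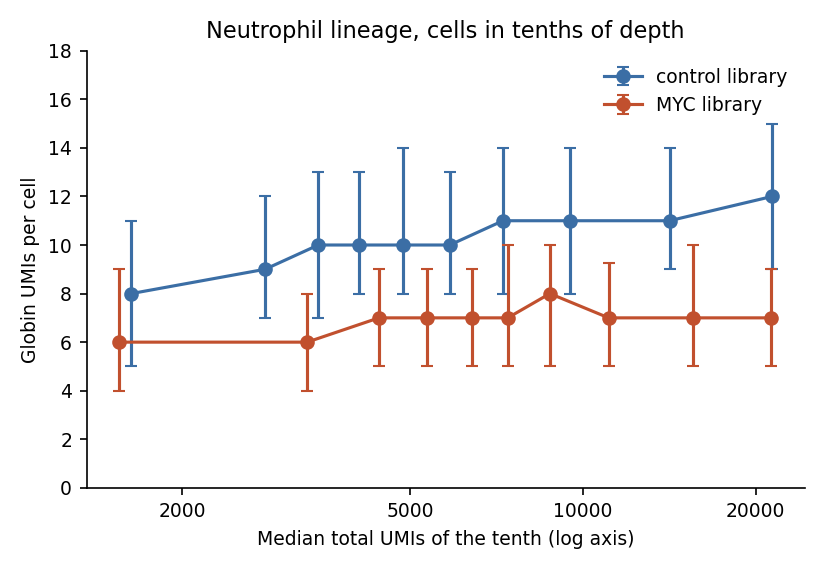
Globin UMIs per neutrophil-lineage cell against the median depth of 10 equal groups of cells (log axis). Points are medians and bars quartiles. The control medians lie between 8 and 12 and the MYC medians between 6 and 8 over depths of 1554 to 21359 UMIs.

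Within the neutrophil lineage, cells were split by depth into 10 groups of equal size. The median globin count was 8 in the shallowest control group, at a median depth of 1631 UMIs, and 12 in the deepest, at 21359 UMIs. In MYC it was 6 in the shallowest group, at 1554 UMIs, and 7 in the deepest, at 21224 UMIs. Globin UMIs per cell thus changed far less than depth, and the level went from 5435 to 565 CPM in the control and from 4364 to 540 CPM in MYC between these groups.

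The composition of these UMIs in the control differed from that of the control's own erythroid cells. In cells with at most 50 globin UMIs, alpha made up 55.3% to 57.8% over the 7 control classes and 30.7% to 36.8% over the 7 MYC classes. Hba-a2 made up 69.4% to 73.0% of alpha in the control classes and 39.4% to 48.6% in the MYC classes. In erythroid cells Hba-a2 was 37.5% of alpha in the control and 31.1% in MYC. So in the control background alpha outweighed beta and Hba-a2 outweighed Hba-a1, both opposite to the order in control erythroid cells. The MYC background kept beta above alpha. Hbb-bt made up 29.0% of beta UMIs in the neutrophil lineage of the control and 22.9% in that of MYC, close to the 27.0% and 23.1% of the erythroid cells.

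Among the barcodes left out, the pooled shares of those rich in mitochondrial UMIs were like the background, and the pooled shares of called doublets were not. Control barcodes with a high share of mitochondrial UMIs had an alpha share of 57.1% and an Hba-a2 share of 67.4%, and those of MYC 37.5% and 43.9%. Called doublets had alpha shares of 32.5% in the control and 27.3% in MYC and Hba-a2 shares of 42.2% and 33.3%. These sums take in barcodes with more than 50 globin UMIs, 141 of 701 control and 6 of 251 MYC doublets. The median doublet held 13 globin UMIs in the control and 7 in MYC, and the shares of doublets without the globin-rich ones were not computed. Among the kept cells, the unnamed low-UMI cluster had alpha shares of 50.7% and 37.3% and Hba-a2 shares of 66.6% and 45.2%. Where this composition comes from was not tested. To see how far it reaches into erythroid cells, the neutrophil-lineage mean per cell was subtracted: the erythroid alpha share of the control went from 34.9% to 34.7%. In the early-progenitor-like sub-cluster of 94 control and 64 MYC cells, the Hba-a2 share went from 48.4% to 39.1% in the control and from 28.7% to 24.3% in MYC. The alpha share there went from 49.5% to 47.2% and from 27.6% to 26.2%, and the Hbb-bt share from 48.4% to 54.1% and from 27.3% to 28.2%. These MYC values are mostly those of 3 of the 64 cells, which held 82.1% of its globin UMIs, and 17 of the 94 control cells held 55.0%.

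On the CPM scale, Hba-a2 was the member that was lower in the MYC background in each class described here. In the neutrophil lineage the 4 genes summed to 1508 CPM in the control and 908 CPM in MYC, a log2 ratio of -0.73 (-0.75 to -0.72), against a median of -0.29 over all genes of that class. Hba-a2 had 595 and 137 CPM (log2 ratio -2.12), Hba-a1 251 and 172 (-0.55), Hbb-bt 192 and 137 (-0.48) and Hbb-bs 470 and 462 (-0.03). By the 2-fold rule 1 of 4 members, Hba-a2, was lower and none was higher, where 5.56% of genes were lower and 1.26% higher. Hba-a2 was also the only member called in monocytes (-2.29), where 4.19% of genes were lower and 1.79% higher. The same held in B-lineage cells (-1.90; 19.3% of genes lower and 3.44% higher) and in T or NK cells (-1.68; 3.57% lower and 2.1% higher). The other members of B-lineage cells had log2 ratios of -0.20 (Hba-a1), 0.16 (Hbb-bs) and -0.05 (Hbb-bt), but 1 of 249 MYC cells held 54.9% of the class's globin UMIs. Without cells above 50 globin UMIs these ratios were -0.56, -0.08 and -0.54, and those of the neutrophil lineage were -0.53, -0.011 and -0.50. Those of T or NK cells had 0.17, 0.38 and -0.02, and without cells above 50 globin UMIs 0.24, 0.44 and 0.05. The MYC cells of this class were shallower, and per cell they held 1.65 Hba-a1 UMIs against 1.88 in the control, 3.61 against 3.58 of Hbb-bs and 1.06 against 1.38 of Hbb-bt. In stem or multipotent progenitors Hba-a1 (-1.09), Hba-a2 (-2.06) and Hbb-bt (-1.12) were lower and none was higher, where 2.08% of genes were lower and 1.09% higher. There 1 of 194 control cells, with 1605 globin UMIs, held 37.0% of the class's total, and without cells above 50 globin UMIs only Hba-a2 was called (-2.14), with Hba-a1 at -0.62 and Hbb-bt at -0.39. In the other 4 classes Hba-a2 was also the only member called without such cells. All-gene medians were -0.15 in monocytes, -0.45 in B-lineage cells, -0.07 in T or NK cells and -0.12 in the progenitors. Hba-a2 was thus lower by more than the all-gene median in each of these classes.

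A few cells outside the erythroid class held more globin than the rest of their class. Of the 7 classes, 45 of 10402 control cells and 16 of 8535 MYC cells had more than 50 globin UMIs. Among macrophages, some of which engulf the expelled nuclei of erythroblasts in marrow, 4 of 71 control and 15 of 681 MYC cells exceeded 50 UMIs. They held 87.0% and 86.2% of the class's globin, and whether any of it was engulfed was not tested. In megakaryocytes the log2 ratio was 3.07 (2.95 to 3.19), but 1 of 57 MYC cells with 3866 globin UMIs held 87.7% of the total. Without cells above 50 UMIs the ratio was 0.08 (-0.09 to 0.25). In the neutrophil lineage this step left the ratio at -0.75, and in macrophages it gave -0.75 (-0.86 to -0.64). The macrophage value sets mostly different cells side by side: the cluster led by C1qb held 19 control and 650 MYC cells, and that led by Cd5l held 52 and 31. Among barcodes called doublets and left out, 20.1% in the control and 2.39% in MYC exceeded 50 globin UMIs. Whether the remaining globin-rich cells are doublets was not tested.

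Other genes of haemoglobin production and disposal were summed over erythroid cells by lists, against a background of 4.87% of genes higher and 3.79% lower in MYC. The 24 erythroid markers summed to 15235 CPM in the control and 11863 in MYC, beside which the lists stand. Counts are also given without the mixed sub-clusters, where 5.12% of genes were higher and 6.22% lower and the median over all genes was -0.09. Some list genes are also erythroid or stage markers, used to name or order the cells. They are Klf1, Gata1 and Myb of the transcription regulators, Alas2, Fech and Slc25a37 of heme synthesis, and Bpgm of the redox genes. Their values are therefore not independent of how the cells were chosen and ordered. The part of the markers in the list values was not tested. Of the other globin genes, 2 had enough UMIs to compare. Hbb-bh1, an embryonic beta-like gene, had 75 UMIs in control and 0 in MYC erythroid cells. Counting a floor of 3 UMIs for MYC, it was 8.47-fold lower, and the interval of the log2 ratio reached up to -2.75. The 75 control UMIs were in 11 cells, and 49 of the library's 81 were in 1 cell. Hbq1b, a theta-like gene, had a log2 ratio of 0.06 (-0.14 to 0.26).

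Of 17 transcription regulators of globin genes, 0 passed the 2-fold rule in either direction, and their median log2 ratio was -0.39, against -0.02 over all genes. Klf1, which activates beta-globin, had 363 CPM in the control and 235 in MYC (log2 ratio -0.63). Gata1, the erythroid master regulator, had 114 and 84.2 CPM (-0.44). Bcl11a, a repressor of embryonic and fetal globin genes, had 118 and 137 CPM (0.22). Without the mixed sub-clusters 1 of 17, the repressor Zbtb7a, was lower, at 208 CPM in the control and 101 in MYC (-1.05).

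Of 12 heme synthesis and mitochondrial transport genes, 1 was lower and 0 were higher, with a median of -0.56. It was Abcb10, a mitochondrial transporter, with 365 CPM in the control and 182 in MYC (-1.005). Slc25a37, which brings iron into mitochondria, had 958 and 481 CPM (-0.99), just short of the rule, and it passed without the mixed sub-clusters (-1.13), which gave 2 lower genes of 12. Alas2, the first enzyme of erythroid heme synthesis, had 549 and 359 CPM (-0.61).

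Of 7 genes that couple translation to heme, 1 was higher and 0 were lower, with a median of 0.40. It was Ddit3, a stress-response transcription factor, with 35.1 CPM in the control and 178 in MYC (2.34), and 35.4 and 197 CPM (2.48) without the mixed sub-clusters. Eif2ak1, the heme-regulated kinase that slows globin translation, had 175 and 119 CPM (-0.56). Ddit3 also led the sub-cluster of 182 MYC cells with no control cell.

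Of 12 protein quality and redox genes, 0 passed in either direction (median -0.43). Ube2o, which tags surplus alpha-globin for degradation, had 162 CPM in the control and 89.9 in MYC (-0.84). Without the mixed sub-clusters 2 of 12 were lower, Ube2o (-1.03) and Bpgm (-1.10), which sets the oxygen affinity of haemoglobin through bisphosphoglycerate. Of 9 clearance genes, 1 was higher and 1 lower (median 0.10). Lrp1, a receptor for heme bound to hemopexin, had 2.45 and 5.37 CPM (1.13) from 54 and 40 UMIs, and Slc40a1, the iron exporter, had 64.1 and 29.9 CPM (-1.10). Haptoglobin (Hp), a neutrophil granule product as well as a binder of free haemoglobin, had 55.3 and 104 CPM (0.91). Without the mixed sub-clusters Hp was at 18.3 and 18.7 CPM (0.03), Lrp1 had too few UMIs to compare, and of 7 clearance genes 0 were higher and 1, Slc40a1 (-1.29), was lower.

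Genes whose level most resembled the summed globins were ranked over the 8 erythroid sub-cluster and library units of at least 100 cells, 3 of them from the mixed sub-clusters, by the correlation of log2(CPM + 1) among 2230 genes. Among the genes most alike, Pearson's r was 0.97 for Alas2, which is also a late-stage marker. It was 0.96 for Smox and Ppp1r15a, 0.95 for Creg1, and 0.94 for Fzr1 and Ptp4a3. The members themselves had r of 0.989 to 0.998 with their sum. The units share the stage order and their libraries, so these values describe likeness only. Alas2 ranged from 240 CPM in an intermediate control sub-cluster to 2344 CPM in a late-like one.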

How the data were processed

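Per the labels' protocols, libraries were made with the Chromium Single Cell 3' kit, version 2. The deposited values are UMI counts per gene and barcode from the authors' run of Cell Ranger, whose version the file headers give as 6.0.0. The submitters' processing notes also name Seurat and the builds GRCm38 and mm10. From these counts, barcodes with at least 500 UMIs, 200 genes and at most 10% mitochondrial UMIs were kept. Doublets called per library by Scrublet in scanpy 1.11.5 (701 control and 251 MYC, or 4.53% and 1.95%, where 13.7% and 11.6% were expected from loading) were left out, so some doublets may remain.

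Both libraries were clustered together, without the members, on 2000 variable genes and 30 components by the Leiden method at resolution 1. Clusters were named from 17 marker lists. Clusters low in UMIs, by a rule completed after the data were seen, stayed unnamed. Levels are summed counts per 1000000 UMIs (CPM), with exact Poisson intervals. Shares have exact Clopper-Pearson intervals, and ratios have conditional binomial intervals. A gene of a class was compared with at least 50 UMIs over both libraries. The members and lists were chosen with earlier results of these data known. Genes named are the members, list genes past the 2-fold rule, the 8 genes most alike the summed globins (some are not reported here), and genes named for their known role after values were seen. The ratio and Poisson intervals and the 2-fold calls were tested on simulated counts that carry counting error only. Clustering, stage order, shares and the spread between cells were not part of that test.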

Additional observations from a re-analysis of the deposited data

Results flagged for a closer look

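The summed globin genes had a log2 ratio of MYC over control of 0.12 in erythroid cells and 3.07 in megakaryocytes, above 0, while the ratio was below 0 in the neutrophil lineage, at -0.73. The difference between these classes was not tested, since each genotype has 1 library. In megakaryocytes the value rests on 1 MYC cell, and in erythroid cells the sign depends on how cells are chosen and weighted.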

How the results depend on the processing

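No paired analysis was possible because each genotype has 1 library and the labels give no replicate numbers. For the same reason no library could be left out. The smaller alpha share of MYC erythroid cells kept its direction in every setting run, whereas the level of the summed globins did not. The log2 ratio of the erythroid sum (0.12) reversed to -0.13 with cells under 5% mitochondrial UMIs, to -0.015 at Leiden resolution 2 and to -0.28 as a mean over cells. It was 0.078 with called doublets kept, 0.14 with at least 1000 UMIs and 500 genes, 0.090 with each library clustered on its own, 0.13 with members outside the CPM total, 0.14 with median-of-ratios scaling and 0.19 with the mixed sub-clusters left out. Among single members, Hba-a1 reversed to -0.13 under 5% mitochondrial UMIs and to -0.28 as a mean over cells, Hbb-bs to -0.12 as a mean over cells, and Hbb-bt to 0.021 without the mixed sub-clusters. In other classes, the B-lineage sum reversed to 0.12 under median-of-ratios scaling and the macrophage sum to 1.16 with libraries clustered separately. The cause of these reversals was not tested.

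The alpha share of control erythroid cells (34.9%) was 34.5% with doublets kept, 34.8% under 5% mitochondrial UMIs, 34.7% with at least 1000 UMIs, 34.4% at resolution 2, 35.0% with separate clustering, 36.7% as a median over cells, 34.7% with the neutrophil background subtracted and 35.1% without mixed sub-clusters. That of MYC (31.4%) was 30.9% at resolution 2, 33.2% as a median over cells and 31.5% without mixed sub-clusters. In the neutrophil lineage, the control sum (1508 CPM) was 1464 with doublets kept, 1653 under 5% mitochondrial UMIs, 1493 with no minimum of genes, 1467 and 1466 at resolutions 0.5 and 2, 1828 with separate clustering, 2454 as a mean over cells, 1395 without the 1% of cells richest in globin and 1412 without cells above 50 globin UMIs. The MYC sum (908 CPM) was 835, 880, 892 (at least 1000 UMIs), 878 (resolution 0.5), 885, 1492, 825 and 842 under the matching settings. Their log2 ratio (-0.73) was -0.81 with doublets kept, -0.91 under 5% mitochondrial UMIs, -0.76 with at least 1000 UMIs, -0.70 at resolution 2, -1.05 with separate clustering, -0.44 under median-of-ratios scaling and -0.76 without the richest cells. Cells with a globin UMI made up 79.0% and 62.7% after thinning, from 99.9% and 99.5%. Subtracting the background, leaving out the mixed sub-clusters and leaving out cells above 50 globin UMIs were chosen after seeing the data. Of the list genes in erythroid cells, 2 were higher and 3 lower by the 2-fold rule, and 1 and 7 without the mixed sub-clusters. Clustering also shifted with numerical rounding between processor settings, which moved cells between sub-clusters and changed the erythroid class at resolution 2, so the values at that resolution are unstable. Range 1 has few globin UMIs outside a few cells, and range 5 of MYC has 24 cells.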
